A study of Mus musculus with 8 samples.

Results

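The cytosolic ribosomal protein genes were examined in Ly6Chi monocytes from mouse livers injured by acetaminophen. Members were the gene rows whose symbol begins with Rpl or Rps followed by a digit or the letter p, without the Rps6k kinases and without symbols marked -ps, the usual mark of a pseudogene. The rule found 89 of the 15336 gene rows in the count table, 53 with large subunit names and 36 with small subunit names. It takes in 76 of the 80 proteins of the mammalian cytosolic ribosome. Those it misses have other names, such as Rpsa, Fau and Rack1. The other 13 members are paralogs, retrocopies or genes with similar names, such as Rps19bp1, which encodes a protein that binds a ribosomal protein.

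Messenger RNA was measured by sequencing of 8 male C57BL/6 mice aged 8 weeks, 24 h after an injection of 300 mg/kg acetaminophen into the peritoneum that followed a 12 h fast. The 4 deficient mice (animals 5, 6, 12 and 13) carried floxed Commd10 alleles and a Cre recombinase driven by Lyz2, the lysozyme M gene of myeloid cells. The 4 control mice (animals 2, 3, 10 and 11) were littermates of like weight that carried the floxed alleles without the Cre. All 8 animals received acetaminophen, so no uninjured liver serves as a baseline. The Cre was never paired with unfloxed Commd10, so what the Cre itself does, what its place in Lyz2 does and what the loss of COMMD10 does cannot be told apart. The sample descriptions spell the animal names in 2 ways, which splits the mice into a higher-numbered set (deficient 12 and 13, control 10 and 11) and a lower-numbered set (deficient 5 and 6, control 2 and 3). The labels do not say what separates these sets. The study asks how the differentiation traits of monocytes without COMMD10 differ from those of controls.

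The ribosome is built from a small subunit, which reads the messenger RNA, and a large subunit, which joins amino acids and holds the tunnel through which the new chain leaves. Each ribosomal protein is normally present in 1 copy per subunit, with the acidic stalk proteins as an exception. In mammals the messengers of these proteins begin with a run of pyrimidines, the 5′ terminal oligopyrimidine (TOP) tract, through which mTOR controls their translation. Many mammalian ribosomal protein genes have processed pseudogenes, which are copies of their messengers put back into the genome, so reads from the parent gene can match several places.

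Library totals ran between 13327665 and 15759224 counts, with 15012 to 15161 genes detected. The cre row held 122, 94, 37 and 77 counts in deficient animals 5, 6, 12 and 13, and 0 in each control. Commd10 averaged 14.2 ± 3.73 CPM in deficient animals and 27.3 ± 2.19 CPM in controls (SD, n = 4 each), where CPM is the usual count scaled for depth, with library sizes adjusted by the trimmed mean of M-values (TMM). The summed level of 15 Ly6Chi monocyte markers was 21711 to 30668 CPM in deficient animals and 25532 to 31795 CPM in controls. Of these 15, 5 were called higher and 5 lower in deficient animals (edgeR adjusted p under 0.05), so the sum hides opposite moves. Lyz2, where the Cre sits, is among the 15. It averaged 4023 ± 3086 CPM in deficient animals and 12708 ± 3409 CPM in controls (SD, n = 4 each). Neutrophil markers, of which 13 of 15 are in the table, summed to 696 to 948 CPM in deficient animals and 425 to 643 CPM in controls, and Ly6g and Camp are not in the table. Of 9 tested neutrophil markers 5 were called higher and 0 lower in deficient animals. Erythroid markers (5 of 8 in the table) summed to 5.74 to 7.74 CPM in the higher-numbered set and 1.60 to 3.82 CPM in the lower-numbered set, while B and plasma cell markers summed to 76.2 to 116 CPM in the higher-numbered set and 135 to 228 CPM in the lower-numbered set. Hepatocyte markers summed to 126 to 173 CPM in deficient animals and 160 to 469 CPM in controls, with 0 of 14 tested higher and 6 lower in deficient animals. Dendritic cell markers summed to 345 to 450 CPM in deficient animals and 441 to 513 CPM in controls, with 0 of 10 tested higher and 6 lower in deficient animals. Kupffer cell markers summed to 235 to 507 CPM in deficient animals and 347 to 615 CPM in controls, with 0 of 9 tested higher and 3 lower in deficient animals. Of 9 tested B and plasma cell markers 2 were higher and 3 lower in deficient animals. Over all tested genes 6.59% were called higher and 7.35% lower by genotype. The part of these other cells in the ribosomal protein results was not tested. Each library is 1 animal, so p-values measure the spread between animals.

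Coding sequences show how closely some members resemble other genes. The first 75 coding bases of Rps27, its retrocopy Rps27rt and its paralog Rps27l are given here, as GENCODE M21 transcripts have them, because the sequencing kit had 75 cycles. Capitals mark bases that differ from Rps27.
Rps27: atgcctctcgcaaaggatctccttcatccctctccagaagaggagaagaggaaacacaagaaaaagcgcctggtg
Rps27rt: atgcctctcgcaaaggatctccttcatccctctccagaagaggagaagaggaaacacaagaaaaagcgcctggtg
Rps27l: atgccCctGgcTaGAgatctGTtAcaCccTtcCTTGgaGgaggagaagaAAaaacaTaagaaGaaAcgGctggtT
Rps27 and Rps27rt are identical over this stretch, so a read from it cannot be placed in one of them by its sequence. Rps27l differs at 22 of the 75 bases. A second example is Rps12, with its pseudogene rows Rps12-ps9 and Rps12-ps10, where capitals mark differences from Rps12.
Rps12: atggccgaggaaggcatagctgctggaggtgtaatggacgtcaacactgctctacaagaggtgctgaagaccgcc
Rps12-ps9: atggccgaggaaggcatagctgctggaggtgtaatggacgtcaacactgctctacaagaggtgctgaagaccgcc
Rps12-ps10: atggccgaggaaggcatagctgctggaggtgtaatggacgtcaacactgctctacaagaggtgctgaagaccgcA
Rps12-ps9 is identical to Rps12 here and Rps12-ps10 differs at 1 base. The Rps12 stretch occurs unchanged in 7 other annotated genes.

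Of the 89 members, 84 share at least 1 window of 75 bases with the transcript of another annotated gene. A window is called unique here when it occurs in no other gene of the annotation, and the median member had 49.7% unique windows. How the submitters treated reads that match several places is not given in the sources used here.

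The ribosomal protein rows took a small and steady share of each library. The share was 1.21%, 1.24%, 1.21% and 1.19% of all counts in deficient animals 5, 6, 12 and 13, against 1.28%, 1.26%, 1.23% and 1.14% in control animals 2, 3, 10 and 11. The genotypes overlapped, since the lowest and the highest share both belonged to controls. The group means were 1.21 ± 0.0219% in deficient animals and 1.23 ± 0.0613% in controls (SD, n = 4 each), a difference smaller than either spread. Deficient minus control was 0.0112 percentage points in the higher-numbered set and -0.0456 in the lower-numbered set. In bulk samples like these, fewer cells with a transcript and less of it per cell cannot be told apart. The 95% exact binomial intervals of single libraries were narrow, for example 1.14% to 1.15% in control 11, and cover counting error only.

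**Figure D1:**
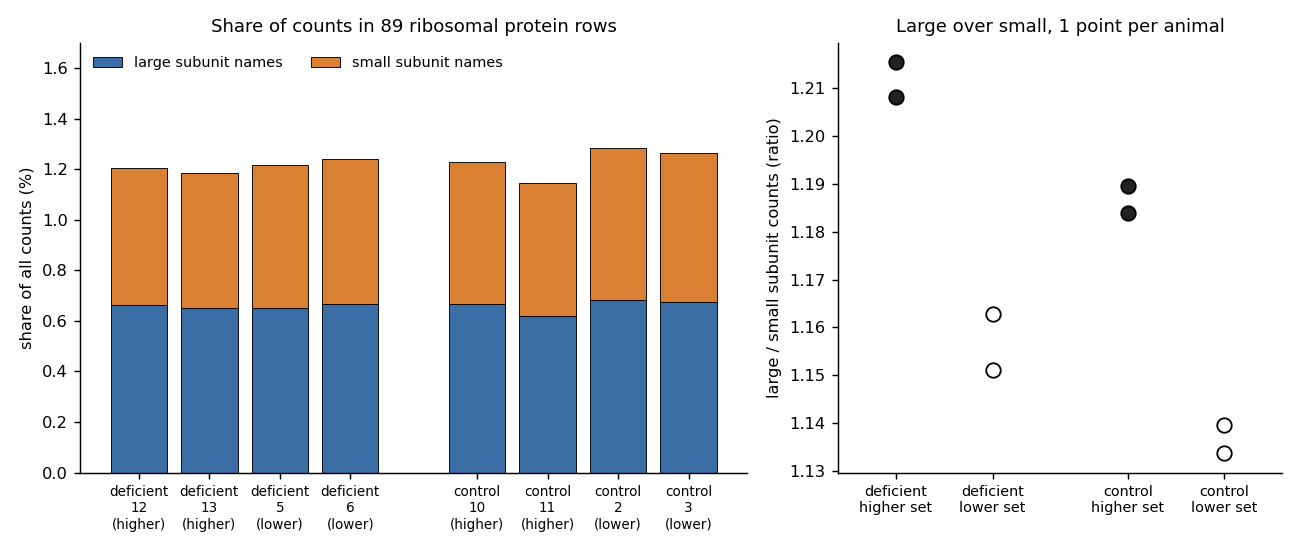
Left, share of all counts (%) in ribosomal protein rows per animal, stacked by large and small subunit names, with the label set under each bar. Right, the ratio of large to small subunit counts, 1 point per animal, where the 4 animals of the higher-numbered set (filled) lie between 1.18 and 1.22 and those of the lower-numbered set (open) between 1.13 and 1.16.

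The large subunit rows held 0.657 ± 0.00852% of counts in deficient animals and 0.660 ± 0.0274% in controls. The small subunit rows held 0.555 ± 0.0167% in deficient animals and 0.569 ± 0.0346% in controls. Between the label sets the total share was 1.19 ± 0.0355% in the higher-numbered and 1.25 ± 0.0291% in the lower-numbered set (SD, n = 4 each), with overlapping animals. After TMM scaling the sets came out nearly level, at 12218.5 ± 527 CPM in the higher-numbered set and 12210 ± 303 CPM in the lower-numbered set for the sum over members. The TMM factors were 0.944 to 1.0001 in the higher-numbered set and 1.02 to 1.03 in the lower-numbered set. By genotype the scaled sum was 12247.5 ± 397 CPM in deficient animals and 12181 ± 457 CPM in controls, with deficient minus control at 643 CPM in the higher-numbered and -510 CPM in the lower-numbered set, so its direction was not the same in the sets.

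The balance between the subunits did separate the sets. The ratio of large to small subunit counts was 1.22 and 1.21 in deficient animals 12 and 13 and 1.19 and 1.18 in control animals 10 and 11 of the higher-numbered set. It was 1.15 and 1.16 in deficient animals 5 and 6 and 1.13 and 1.14 in control animals 2 and 3 of the lower-numbered set. The sets did not overlap, and within each set both deficient animals lay above both controls. Deficient minus control was 0.0250 in the higher-numbered and 0.0203 in the lower-numbered set. No test was made of this ratio, since it is a score over the members. In summed CPM the large subunit was at 6664 in the higher-numbered and 6522 in the lower-numbered set, and the small subunit at 5555 in the higher-numbered and 5688 in the lower-numbered set. Rps9 alone accounted for -99.3 CPM of the small subunit difference of -133 CPM, and Rpl8 for 60.9 CPM of the large subunit difference of 142 CPM.

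A few abundant genes carry most of the counts. Rpl4, Rpl8, Rps3, Rplp0 and Rps9 together held 33.5% of the members' CPM, and the 10 most abundant members held 51.9%. Rpl4, a large subunit protein whose long loop lines the exit tunnel, had the most counts (ENSMUSG00000032399, GRCm38 chr9:64173375-64178666, + strand). It had 1102, 1118, 1223 and 1164 CPM in deficient animals 5, 6, 12 and 13, against 1153, 1155, 1145 and 1093 CPM in control animals 2, 3, 10 and 11. These values overlapped between the genotypes and between the sets. Per length of transcript, the highest members were Rpl8 at 1007, Rps15 at 928 and Rps9 at 781 CPM per kb. All 3 encode core proteins of their subunits. The lowest were Rpl6l, Rps3a3 and Rpl39l at 0.109, 0.336 and 0.347 CPM per kb, of which the annotation lists Rpl6l and Rps3a3 as processed pseudogenes.

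Among the 76 core proteins found by the rule, the level per length spanned 1247-fold, between Rpl23a at 0.808 and Rpl8 at 1007 CPM per kb, although the assembled ribosome holds most of these proteins in equal number. The middle of the range was narrower, with quartiles at 30.4 and 217 CPM per kb. The share of unique windows ran along with this level, with a Spearman correlation of 0.59 across the 76 genes, which are not independent and come from the same libraries. The 14 core genes with more than 75% unique windows had a median of 422 CPM per kb, against 38.6 CPM per kb in the 18 with up to 25%. Rpl23a, with 18.3% unique windows shared with 17 other genes, was counted so rarely that it missed the count filter. Whether the handling of shared reads sets these levels was not tested, so levels of different members should not be read as amounts of protein or of messenger.

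Deficient monocytes differed from controls in almost no ribosomal protein gene. Of the 85 members that passed the count filter, 1 rose and 0 fell in deficient animals (edgeR quasi-likelihood test with the label set in the model, Benjamini-Hochberg adjusted p under 0.05 over 12178 genes), where 13.9% of all tested genes were called, 6.59% higher and 7.35% lower. At an unadjusted p under 0.05 there were 8 members, against 30.9% of all tested genes. The members' median log2 fold change was 0.01 and their median size regardless of sign was 0.06, against 0.16 over all tested genes. In 80 of the 85 the log2 fold change lay within 0.25 of 0, and the median standard error (SE) was 0.07. The large and small subunits had like medians, at 0.01 each.

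The member that rose was Rpl27, which encodes a large subunit protein (ENSMUSG00000063316, GRCm38 chr11:101442298-101445529, + strand). It had 11.9, 13.6, 20.1 and 17.3 CPM in deficient animals 5, 6, 12 and 13, against 9.56, 10.4, 13.7 and 12.3 CPM in control animals 2, 3, 10 and 11. In each label set both deficient animals lay above both controls, although the genotypes overlap when the sets are pooled. The log2 fold change was 0.43 (SE 0.10, edgeR adjusted p = 0.0213), split into 0.52 for the higher-numbered animals and 0.35 for the lower-numbered animals. DESeq2 and limma voom also called 1 member. The call was lost on leaving out deficient 6, deficient 12, control 2 or control 11, with edgeR adjusted p of 0.0529, 0.0689, 0.0557 and 0.0714, and without the label set in the model, with an adjusted p of 0.393. Rpl27 is also a gene of which only 37.6% of windows are unique, shared with 9 other genes.

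**Figure D2:**
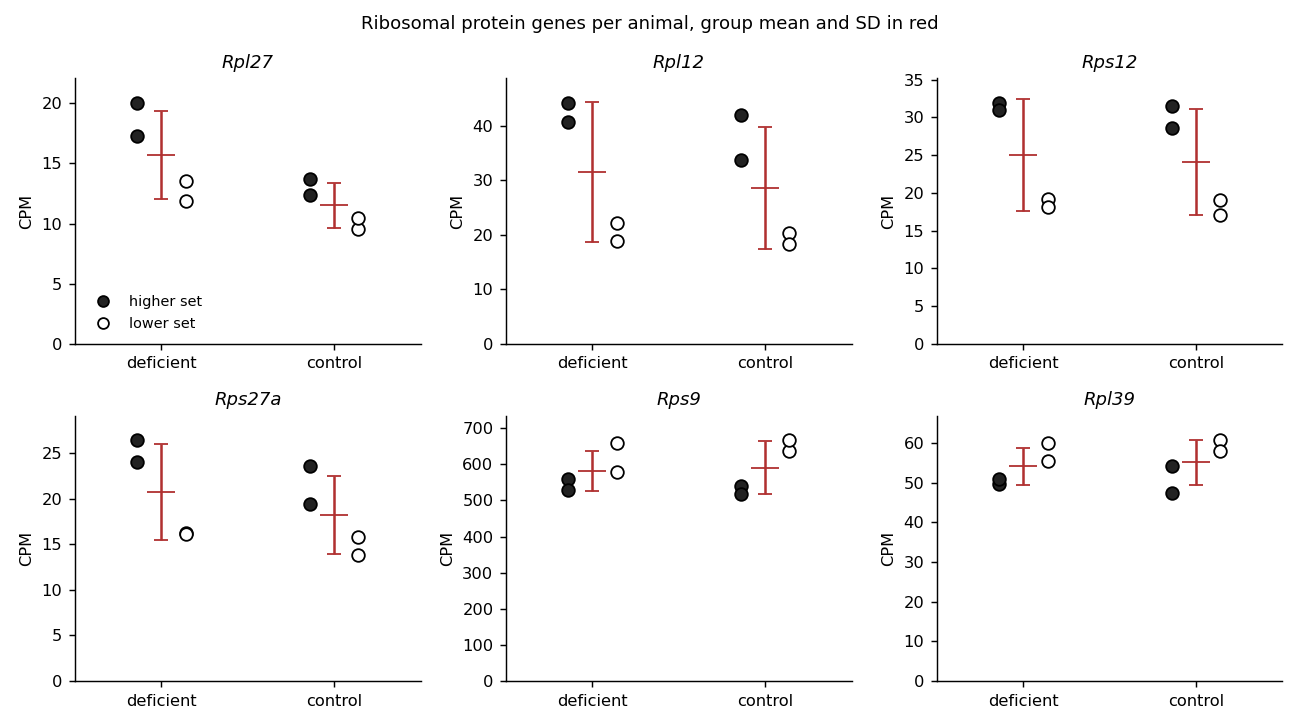
CPM per animal of Rpl27, Rpl12, Rps12, Rps27a, Rps9 and Rpl39, deficient left of control, filled for the higher-numbered and open for the lower-numbered set, with group mean ± SD (n = 4) in red. For Rpl12, Rps12 and Rps27a all filled points lie above all open points whatever the genotype, and for Rps9 and Rpl39 below them.

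The next members by p were not called. Rpl9, a large subunit protein near the base of the stalk, stood at 0.18 in log2 (SE 0.05, edgeR adjusted p = 0.0612). Rps28 had -0.23 (SE 0.07, adjusted p = 0.0628) and Rpl38 had -0.23 (SE 0.07, edgeR adjusted p = 0.0643). With upper-quartile factors both passed, at adjusted p of 0.0483 for Rps28 and 0.0395 for Rpl38 (edgeR). RPL38 is known in mouse embryos for its part in the translation of homeobox messengers. Rps19bp1 stood at 0.25 and Rpl10 at 0.13 (edgeR adjusted p = 0.0967 and 0.128). Rps28 had 38.9, 32.5, 30.4 and 30.2 CPM in deficient animals 5, 6, 12 and 13, against 39.6, 40.1, 36.7 and 38.1 CPM in control animals 2, 3, 10 and 11. Each deficient animal was below both controls of its set, though deficient 5 lay above both controls of the higher-numbered set.

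When the genotypes were compared without the label set, 0 members and 0 of all tested genes were called by edgeR, with 4 members at an unadjusted p under 0.05 against 12.5% of all genes. DESeq2 and limma voom also called 0 members in that comparison. The CPM of deficient and control animals did not overlap for 2 of the 85 members, Rps24 below and Rpl7l1 above the controls (Rps24 was named after its values were seen), against 7.02% of all tested genes. Within both label sets and in the same direction, the genotypes did not overlap for 10 members, against 27.3% of all tested genes.

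For no member did a difference in genotype effect between the sets pass the test. The interaction term of edgeR called 0 of 85 members and 0.0411% of all tested genes, DESeq2 and limma voom called 0 members, and at an unadjusted p under 0.05 there was 1 member, Rps26, against 6.71% of all genes. Rps26, named for that reason alone, had an interaction of 0.25 in log2 (edgeR adjusted p = 0.732). The log2 fold change of deficient over control was larger in the higher- than in the lower-numbered set for 71 of 85 members, and for 47.8% of all tested genes. The median interaction was 0.11 over members and -0.01 over all genes, and the members' median was 0.06 without control 11, whose ribosomal protein share was the lowest, and 0.17 without control 10.

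**Figure D3:**
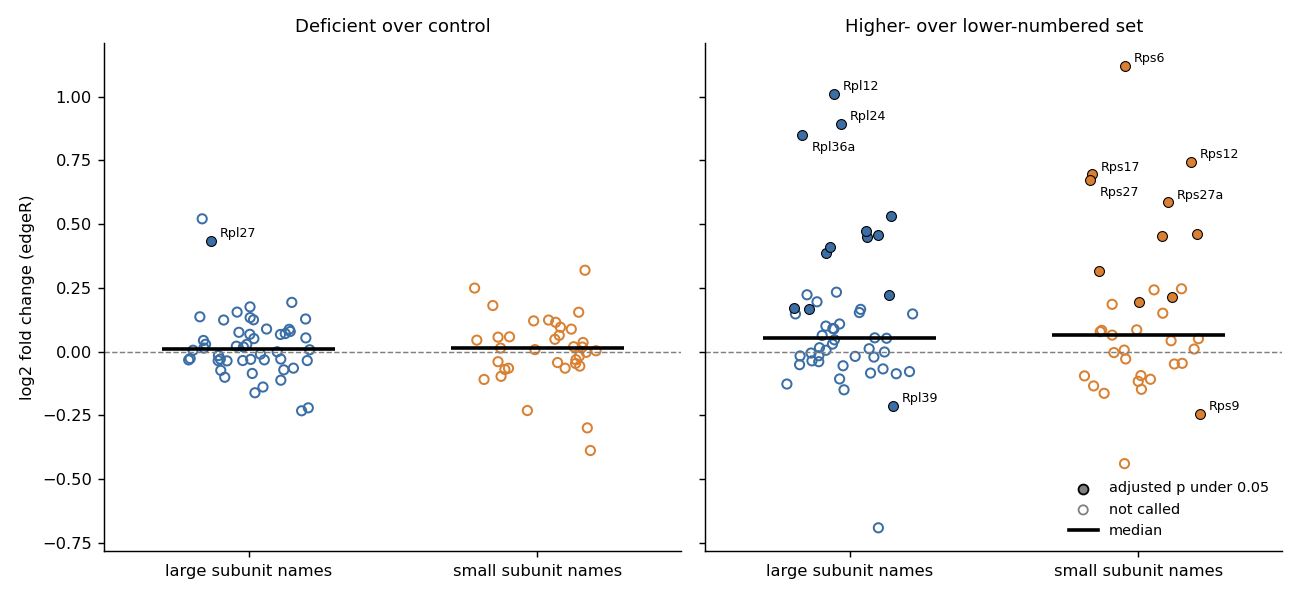
Log2 fold change of the 85 tested members by subunit, deficient over control (left) and higher- over lower-numbered set (right), with 1 point per gene, filled where the edgeR adjusted p is under 0.05, and the median as a bar. One gene is filled on the left and 24 on the right, of which 22 lie above 0.

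More ribosomal protein genes differed between the label sets than between the genotypes. With both directions pooled this was a smaller share of them than of all genes, and the shortfall lay in the members that fell. In the higher-numbered set 22 of 85 members rose and 2 fell (same edgeR fit, genotype in the model), where 36.9% of all tested genes were called, 18.6% higher and 18.3% lower. With libraries scaled by their totals alone, 14 members were higher and 12 lower, and the members' median moved to -0.02 against 0.05 with TMM. Both genotype and set comparisons use the same 8 animals. The median set difference was 0.05 for large subunit names and 0.07 for small subunit names (log2), with 12 of 50 large and 10 of 35 small subunit members higher. The set count fell to 15 without deficient 12 and to 15 without control 10. Within 1 genotype the design has only 2 animals per set, and 7 members were called in deficient animals alone and 7 in controls alone. The share of all tested genes called in these smaller fits is not given here. Fewer of all tested genes were called in each of them than in all 8 animals, so these 2 counts cannot be set against the 36.9% above.

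Rpl12, a large subunit protein that holds the base of the stalk, had the smallest p (ENSMUSG00000038900, GRCm38 chr2:32961559-32965345, + strand). It had 44.2, 40.6, 41.9 and 33.7 CPM in deficient 12, deficient 13, control 10 and control 11, against 18.9, 22.1, 20.3 and 18.2 CPM in deficient 5, deficient 6, control 2 and control 3. The sets did not overlap, and by fold change on the log2 scale the difference was 1.01 (SE 0.09, edgeR adjusted p = 0.000160). Rps12, a small subunit protein (ENSMUSG00000061983, GRCm38 chr10:23785183-23787275, - strand), had 32.0, 31.0, 31.5 and 28.6 CPM in the same animals of the higher-numbered set, against 19.2, 18.1, 19.1 and 17.1 CPM in those of the lower-numbered set. Its sets did not overlap either, and edgeR put the log2 fold change at 0.74 with SE 0.07 and adjusted p = 0.000176.

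Rps27a, made as a fusion with ubiquitin that is cut apart after translation, was at 23.4 ± 2.90 CPM in the higher-numbered and 15.5 ± 1.15 CPM in the lower-numbered set (SD, n = 4 each). The difference was 0.59 in log2 (SE 0.09, edgeR adjusted p = 0.00126). Rpl10a was at 79.3 ± 9.03 CPM in the higher-numbered and 54.8 ± 3.95 CPM in the lower-numbered set, a log2 fold change of 0.53. Rpl13 and the paralog Rpl22l1, which in mice can stand in for Rpl22, had log2 fold changes of 0.39 and 0.46. None of these 4 overlapped between the sets. Over all 85 tested members the sets did not overlap for 21, against 24.3% of all tested genes, a share near the background. Rps6, the substrate of S6 kinase, had the largest log2 fold change of the members at 1.12, and Rpl24 and Rpl36a had 0.89 and 0.85. These 3 were chosen for mention after their values were seen. They were rare, at 3.31, 1.34 and 3.63 CPM over the 8 animals.

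Rps9 and Rpl39 fell. Rps9, a small subunit protein (ENSMUSG00000006333, GRCm38 chr7:3703993-3706897, + strand), had 560, 529, 541 and 518 CPM in deficient 12, deficient 13, control 10 and control 11, against 660, 579, 638 and 668 CPM in deficient 5, deficient 6, control 2 and control 3. Every animal of the higher-numbered set was below every animal of the lower-numbered set, at a log2 fold change of -0.24 with SE 0.07 (edgeR adjusted p = 0.0162, and 0.0508 without control 3). Rpl39, a short protein at the exit tunnel (ENSMUSG00000079641, GRCm38 chrX:37082520-37085402, - strand), was at 50.6 ± 2.82 CPM in the higher-numbered and 58.7 ± 2.35 CPM in the lower-numbered set. Its log2 fold change was -0.21 (SE 0.06, edgeR adjusted p = 0.0221), and leaving out deficient 6, deficient 12, control 2 or control 10 gave adjusted p of 0.0566, 0.0603, 0.0632 and 0.0637.

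The 22 members that rose were of low abundance. They had a median of 18.6 CPM, against 100 CPM in the other 63 tested members, and held 6.39% of the members' CPM. Their summed level was 934, 891, 868 and 791 CPM in deficient 12, deficient 13, control 10 and control 11, against 665, 728, 691 and 673 CPM in deficient 5, deficient 6, control 2 and control 3. Among the 33 members over 100 CPM only Rps2 and Rpl14 rose and Rps9 fell, while 27.3% of all tested genes of that level rose. Of the 15 members under 10 CPM, 7 rose, against 12.0% of all genes of that level.

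They also tended to share more sequence with other genes. The median share of unique windows was 26.5% in the 22 and 58.6% in the other 63. By bins of unique windows, 11 of 19 members rose with up to 25%, 5 of 24 with over 25 to 50%, 5 of 23 with over 50 to 75%, and 1 of 19, Rps27l, with over 75%. Over all tested genes 18.6% rose, and the middle bins lie near that share. The share of unique windows depends on the transcript chosen, which in the last bin was 5130 bases long for Rps15a and 3706 for Rps20. The Spearman correlation between the share of unique windows and the set difference was -0.42 over 85 genes, and that with the genotype difference was -0.09. Level and sequence sharing go together in these genes, and the part of either in the set difference was not tested. The rows named as -ps pseudogenes took 0.00650 ± 0.000368% of counts in the higher-numbered and 0.00677 ± 0.000317% in the lower-numbered set, with overlap. By genotype they took 0.00636 ± 0.000186% in deficient animals and 0.00691 ± 0.000223% in controls, without overlap. The groups nearly touched, with 0.00657% (979 counts) in deficient 5 and 0.00660% (926 counts) in control 11. Of all tested genes taken singly, 7.02% had no overlap in CPM between the genotypes. Of 58 such rows 25 were tested, and edgeR called 0 for set and 0 for genotype, with 3 for each at an unadjusted p under 0.05. Over all tested genes 36.9% were called by set and 13.9% by genotype, and 30.9% had an unadjusted genotype p under 0.05. The 58 rows together held only 867 to 1051 counts per animal, so differences in them can be missed. Of the 22, 8 contain a small nucleolar RNA (snoRNA) gene, against 20 of the other 63.

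**Figure D4:**
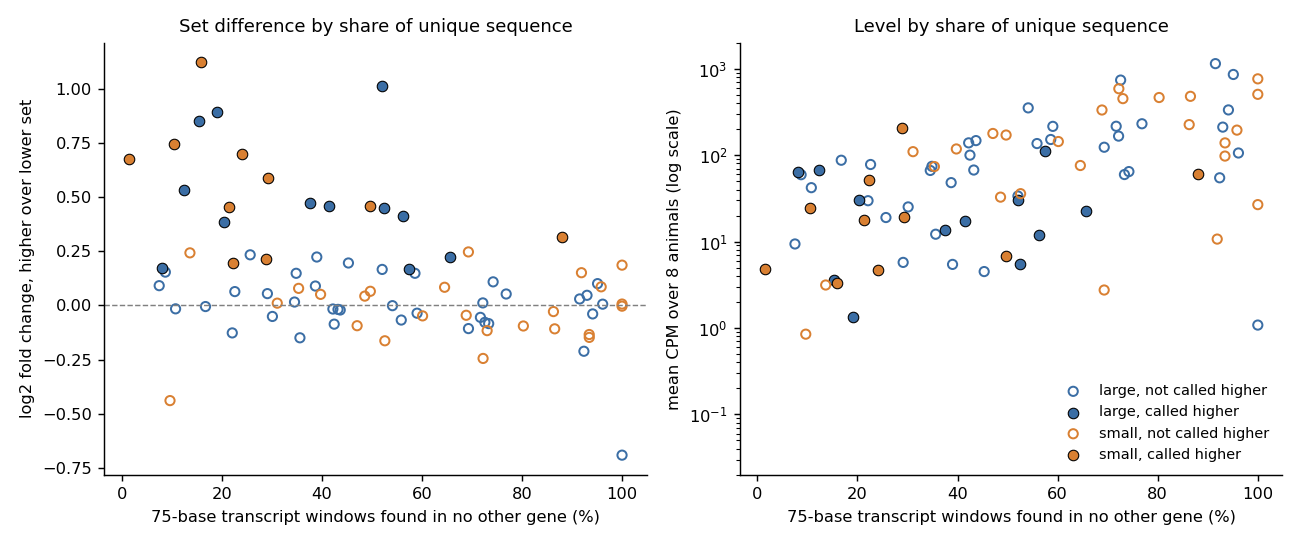
Set difference (left, log2 fold change, higher over lower set) and mean CPM over the 8 animals (right, log scale) of the 85 tested members, against the share of 75-base transcript windows found in no other gene (%). Filled points are the 22 members called higher, of which 11 lie at or under 25% unique windows and 1 lies over 75%. Over all tested genes 18.6% were called higher.

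Promoters of 5 called members are shown because a TOP tract sits at the start of the messenger. Each stretch covers 60 bases before and 20 bases from the RefSeq start on GRCm38.p6, and capitals mark a TOP-like tract, defined as a C followed by at least 4 pyrimidines that begins within 5 bases of the start.
Rpl12 chr2:32961652-32961731, + strand: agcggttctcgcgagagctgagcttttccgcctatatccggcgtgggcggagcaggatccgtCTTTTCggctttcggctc
Rps12 chr10:23787190-23787269, - strand: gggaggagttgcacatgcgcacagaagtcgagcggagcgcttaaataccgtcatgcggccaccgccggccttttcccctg
Rpl27 chr11:101442185-101442264, + strand: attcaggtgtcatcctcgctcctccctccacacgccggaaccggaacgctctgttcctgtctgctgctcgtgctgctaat
Rps9 chr7:3703981-3704060, + strand: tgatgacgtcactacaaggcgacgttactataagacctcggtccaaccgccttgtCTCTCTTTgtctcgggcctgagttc
Rpl39 chrX:37085203-37085282, - strand: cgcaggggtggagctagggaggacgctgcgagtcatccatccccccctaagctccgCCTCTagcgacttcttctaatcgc
Rpl12, Rps9 and Rpl39 have such a tract at the annotated start, and no match was found for Rps12 and Rpl27 within that distance. The Rps12 stretch does hold a long pyrimidine run that begins with C near its end, more than 5 bases after the RefSeq start. Its missing match thus depends on the annotated start and the cutoff, and does not show that the Rps12 messenger lacks a TOP tract. RefSeq starts need not be the ends of the GENCODE genes given above. Of 65 members with a RefSeq promoter, 30 (46.2%) had a TOP-like start, against 23.9% of 8982 other tested genes and 18.3% of all 32851 promoters. The letters CCGGAAG, a core bound by ETS factors such as GABP, stood on either strand between 250 bases before and 50 bases after the start in 25 members (38.5%), against 21.1% of other tested genes and 8.86% of all promoters. AAGATGGC, a core bound by YY1, stood there in 6 members (9.23%), against 5.70% of other tested genes and 2.75% of all promoters. The motifs were searched as letters alone, and a match is not a measured binding site.

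By role, few members of small assemblies were called, where 13.9% of all tested genes were called by genotype and 36.9% by set. These assemblies hold too few genes for their counts to be told apart from those shares. RPL5 and RPL11 form a particle with 5S ribosomal RNA that also binds MDM2 when ribosome assembly fails. Rpl5 was at 9.65 ± 0.252 CPM in deficient animals and 9.10 ± 1.81 CPM in controls, and Rpl11 at 5.53 ± 0.809 CPM in deficient animals and 5.34 ± 0.402 CPM in controls (SD, n = 4 each), and neither was called for genotype or set. Of the stalk, which recruits elongation factors, Rplp1, Rplp0 and Rplp2 averaged 706, 544 and 239 CPM per kb, against 24.2 CPM per kb for Rpl12 at its base. Their set differences were -0.08 for Rplp0 and 0.05 for Rplp2 in log2, neither called, nor was Rplp1, while Rpl12 rose. Of 8 tested exit tunnel proteins edgeR called 0 for genotype, with 1 at an unadjusted p under 0.05, against 30.9% of all tested genes. By set Rpl39 fell and none rose. The smallest genotype p among them was that of Rpl17, at -0.16 in log2 (edgeR adjusted p = 0.156).

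The paralogs and relatives ranged widely in level per length over the 8 animals. Rps27l averaged 121, Rpl36al 91.3, Rpl7l1 40.6, Rps19bp1 31.9, Rpl22l1 31.3, Rpl37rt 29.8 and Rps4l 13.5 CPM per kb, while Rps3a2, Rps27rt and Rpl3l averaged 3.97, 2.27 and 0.786 CPM per kb. RPL3L is known from heart and skeletal muscle and RPL39L from the testis. Rpl39l was at 0.347 CPM per kb here, against 89.3 CPM per kb for Rpl39. Rps27l, whose human counterpart is a target of p53, rose by 0.32 in log2 in the higher-numbered set (SE 0.09, edgeR adjusted p = 0.0191), and leaving out deficient 12, control 3 or control 10 gave adjusted p of 0.0501, 0.0615 and 0.0580. Outside the symbol rule, Rack1, Rpsa and Fau were at 734, 32.98 and 23.8 CPM per kb over the 8 animals, and edgeR called none of them for genotype or set, nor did any have an unadjusted p under 0.05.

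Members did not rise and fall strongly as one. The median pairwise correlation of log2 CPM between members over the 8 animals was 0.26, and that of each member with the members' sum was 0.44, as a description of 8 animals in 2 sets. The genes most like the summed member level were Cox8a, a subunit of cytochrome c oxidase (Pearson r = 0.94), Tmem222 (0.93), Itpa (0.92), 1110065P20Rik (0.92) and Sbds (0.91), each over 8 animals. They were picked as the highest values in a search of the other tested genes. With only 8 animals such a search can find values this high by chance. Whether these genes vary with the members was not tested.

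Genes that build and use ribosomes were counted in the same way, beside shares over all tested genes of 18.6% higher and 18.3% lower by set and 6.59% higher and 7.35% lower by genotype. Of 80 tested ribosome assembly genes, 61 rose and 1 fell in the higher-numbered set. By genotype 7 rose in deficient animals, a share near the 6.59% of all tested genes, and 0 fell, against 7.35%. At an unadjusted genotype p under 0.05 (edgeR) there were 34 of the 80, against 30.9% of all tested genes. The median genotype log2 fold change of the 80 was 0.17, against -0.000278 over all tested genes. Whether this list shifts as a whole was not tested. Heatr1, needed for ribosomal RNA transcription and processing, was at 179 ± 37.0 CPM in deficient animals and 137 ± 29.9 CPM in controls, or 0.38 in log2 for genotype (SE 0.07, edgeR adjusted p = 0.00899), and its set difference was 0.51. Pno1, needed to mature the small subunit, and Utp4 were called with 0.30 and 0.26 in deficient animals (log2). Pno1 was no longer called with library totals (edgeR adjusted p = 0.0526) or without deficient 6, deficient 12, control 2, control 3 or control 11 (0.0703 to 0.0809). Utp4 was no longer called with library totals (edgeR adjusted p = 0.0511) or without any 1 of deficient 6, 12 and 13 and control 2, 3 and 11 (0.0539 to 0.0819). Utp4 and Taf1d, a subunit of an RNA polymerase I factor, rose by 0.61 and 0.62 between the sets. Utp3 was called with -0.23 between the sets, but not without any 1 animal other than control 10 (edgeR adjusted p of 0.0557 to 0.102).

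Of 13 tested snoRNA host genes, 8 rose and 0 fell between the sets, and edgeR called 0 for genotype, and 0 also at an unadjusted p under 0.05. Gas5, a noncoding host whose transcript has a TOP tract, was at 147 ± 6.05 CPM in the higher-numbered and 84.5 ± 9.19 CPM in the lower-numbered set, or 0.80 in log2 (SE 0.07, edgeR adjusted p = 0.000122). Snhg1 and Snhg4 had set differences of 0.75 and 1.43. Of 36 translation factors, 19 rose and 2 fell between the sets, against 18.6% and 18.3% of all tested genes. In deficient animals 9 rose and 1 fell, against 6.59% and 7.35% of all tested genes. At an unadjusted genotype p under 0.05 (edgeR) there were 19 of the 36, against 30.9% of all tested genes. Etf1, the release factor, Eif4e, which binds the cap, and Eif3a rose in deficient animals by 0.33, 0.31 and 0.26 (log2). Eif3f was called with -0.25, but without any 1 animal other than deficient 5 it was not (edgeR adjusted p of 0.0623 to 0.0976). Between the sets Eif4a1, Eif4e and Abce1 had log2 fold changes of 0.60, 0.49 and 0.43, and Eif3f and Eif3h fell by 0.37 and 0.19.

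**Figure D5:**
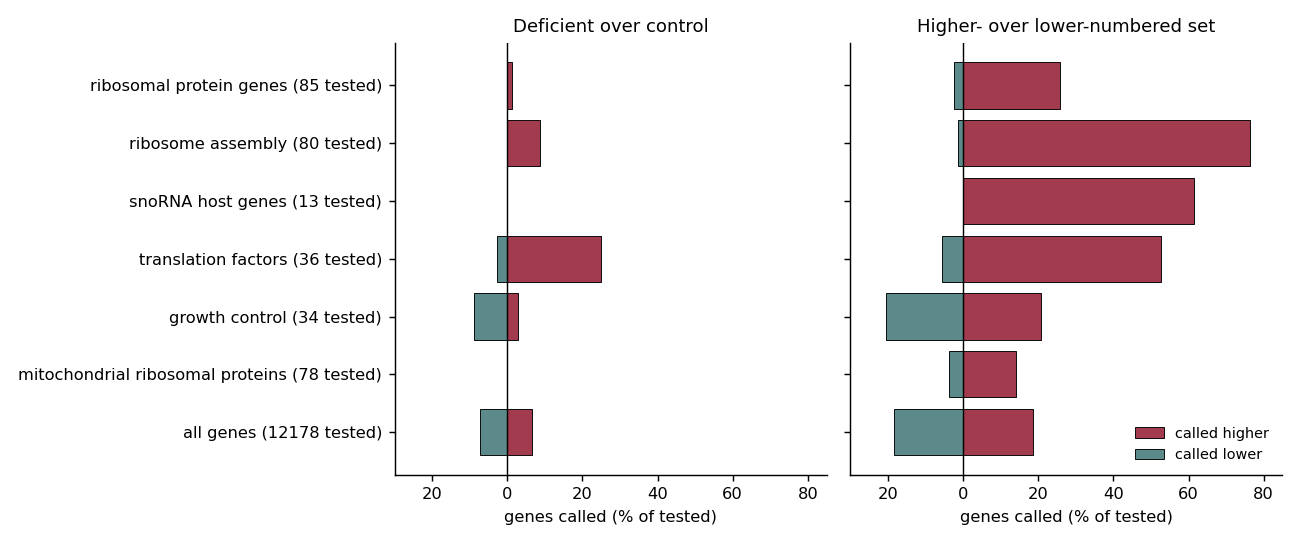
Share of tested genes called at an edgeR adjusted p under 0.05 (%), higher to the right and lower to the left, for deficient over control and for higher- over lower-numbered set. In the second comparison 61 of 80 ribosome assembly genes and 8 of 13 snoRNA host genes lie to the right, against 22 of 85 ribosomal protein genes and 18.6% of all tested genes.

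Of 34 genes that control growth and ribosome production, 7 rose and 7 fell between the sets, and 1 rose and 3 fell in deficient animals. Over all tested genes 36.9% were called by set and 13.9% by genotype, so both counts are near the background. Deptor, an inhibitor of mTOR, fell by 0.48 in deficient animals (log2). Rps6kb1, which encodes S6 kinase, was called with 0.30, Sesn1, which restrains mTOR, with -0.46 and Rps6ka1 with -0.26 in deficient animals (log2). Rps6kb1 was no longer called with library totals (edgeR adjusted p = 0.0533) or without any 1 of deficient 5, 6 and 12 and control 2, 3 and 11 (0.0558 to 0.107). Sesn1 lost its call without any 1 of deficient 6, 12 and 13 and control 2 and 11 (edgeR adjusted p of 0.0526 to 0.0706). Rps6ka1 lost its call without any 1 of deficient 6 and 12 and control 2, 3 and 11 (edgeR adjusted p of 0.0535 to 0.0749). Between the sets Rps6kb1, Larp1, which binds TOP tracts, and Mdm2 had log2 fold changes of 0.44, 0.32 and 0.37, while Ddit4, an inhibitor of mTOR, fell by 0.95, Rps6ka1 by 0.55 and Maf1, a repressor of RNA polymerase III, by 0.40. Of 78 mitochondrial ribosomal protein genes, which belong to a separate ribosome, edgeR called 0 for genotype, with 9 at an unadjusted p under 0.05, against 30.9% of all tested genes. Between the sets 11 of the 78 rose and 3 fell, against 36.9% of all tested genes called. Mrps25, Mrps28 and Mrpl15 had log2 set differences of 0.39, 0.55 and 0.32, and Mrpl14 fell by 0.25. These lists were compared by counts alone, and whether they differ from the ribosomal protein genes was not tested.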

How the data were processed

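Raw counts, whole reads per gene in each animal, are what the authors deposited. Per the submitters' processing notes the tools were DESeq2 1.26.0, HTSeq 0.12.4, STAR 2.7.3a and cutadapt on GRCm38, in roles not stated. Strand and the treatment of reads with several matches are not given in the sources used here. The 8 normalised columns were not used.

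The deposited counts were fitted in edgeR 4.0.16 (R 4.3.3), quasi-likelihood test, two-sided, with TMM factors, genotype and label set, on 12178 genes kept by filterByExpr (minimum count 10, minimum total 15). The filter removed 3158 genes, among them the members Rpl23a, Rpl39l, Rpl6l and Rps3a3. P-values were adjusted by Benjamini-Hochberg over all genes tested and called under 0.05. Alternatives used DESeq2 1.42.0, limma 3.58.1 voom, other scalings, filters and thresholds, and left out each animal. Scripts were checked on simulated data. SE is the log2 fold change over the root of F.

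Windows of 75 bases came from 1 coding transcript per gene in GENCODE M21 (GRCm38), chosen by APPRIS and support level. CPM per kb divides by its length. Named members have the smallest p (6 per direction where called), the extremes of level, or a listed role, and each other list gives up to 3 per direction. Members, lists and tests were chosen with earlier results of these data known. Some results are not reported here.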

Additional observations from a re-analysis of the deposited data

Results flagged for a closer look

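Within the 4 animals of 1 genotype, a single animal stood apart from the other 3 in 10 of 74 groups tested by Dixon's gap-to-range ratio, where chance flags about 1 in 20. Deficient 12 was above the other deficient animals for Rpl7l1 (128 CPM, others 107 to 110), Rpl36al (56.2 CPM, others 47.5 to 49.0), Rps3a2 (3.60 CPM, others 2.37 to 2.50) and Rpl6l (0.485 CPM, others 0 to 0.0657). Control 11 was below the other controls for Rpl4 (1093 CPM, others 1145 to 1155), Rpl7l1 (87.6 CPM, others 102 to 103) and Rpl6l (0 CPM, others 0.0665 to 0.0751), and above them for Rpl39l (0.287 CPM, others 0.133 to 0.150). Control 10 was below the other controls for Rps27rt (0.601 CPM, others 1.005 to 1.09), and control 2 for Rps4l (6.85 CPM, others 10.9 to 11.6). Of the 10, Rpl6l and Rpl39l rest on a few counts, and neither was tested for genotype or set.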

How the results depend on the processing

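The genotype count of 1 member became 3 with upper-quartile factors, 2 with library totals and 2 with a filter of 5 CPM in 4 libraries, and 0 at an adjusted p under 0.01, without the label set, in the lower-numbered set alone and in the higher-numbered set alone. Leaving out each animal gave 0 to 2. The set count of 24 became 11 at an adjusted p under 0.01, 7 in control animals alone and 7 in deficient animals alone. Leaving out each animal gave 15 to 25, with 15 without deficient 12 and 15 without control 10. Over all tested genes, fewer calls were also made for genotype and for set without any 1 animal and at an adjusted p under 0.01. The same held within 1 set or 1 genotype alone. Calls lost in these settings need not be particular to the members. DESeq2, limma voom, RLE factors and TMM without the ribosomal protein rows gave 1 member for genotype and 20 to 25 for set. Without genotype in the model the set count was 16. The interaction and the genotype comparison without the label set gave 0 members in every alternative run. The share of all counts, deficient minus control, was -0.0172 percentage points and became -0.0456 without control 11 and 0.000485 without control 2. Higher minus lower set was -0.0590 and ranged from -0.0710 to -0.0433. No paired analysis was possible because deficient and control animals carry different numbers. Members under 10 CPM limit what a small difference can show.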
